A study of Mus musculus with 48 samples.

Results

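Motile cilia genes were followed by mRNA and by ribosome footprints in 6 mouse tissues at 2 stages, with lung set against brain. The list of 38 genes was drawn up by symbol. All 38 symbols were found by Ensembl identifier among the 22055 genes of the deposited tables, 2 of them under the older names Dnaic1 and Dnaic2 (given here as Dnai1 and Dnai2). Tissue came from wild-type C57BL/6 mice at P42, 42 days after birth, or at embryonic day 15.5 (E15.5), and the tissues were lung, brain, retina, kidney, heart and liver. Each tissue and stage was measured by RNA-seq, which counts messenger RNA, and by Ribo-seq, which counts the fragments of messenger RNA that ribosomes protect. Each of the 24 combinations has 2 biological replicates per the study's design text, 48 libraries in all, with no transgene, mutation or treatment in any of them. The tissues are whole organs, and the labels do not say whether trachea was taken with lung or which brain regions were taken.

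A motile cilium is a microtubule rod, the axoneme, that beats. Outer and inner dynein arms on its doublet microtubules drive the sliding, radial spokes and a central pair of microtubules regulate it, and a molecular ruler and the nexin link set the spacing of these parts. Multiciliated cells carry many such cilia. They line the airways of the lung and, as ependymal and choroid plexus cells, the ventricles of the brain. Multicilin (Mcidas) and Ccno act early in these cells, when centrioles are multiplied, and the transcription factors Foxj1 and Rfx3 switch on axonemal genes. Rfx3 also acts in cells with a single immotile cilium. Sperm tails are built from many of the same proteins.

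The values are TPM (read counts divided by gene length and scaled to the library), so levels can be compared between genes per length, while the read depth is unknown. Each stage and assay is a table of its own. Stage and table therefore coincide, and differences between stages and differences between separately made tables cannot be told apart. Between 48.9% and 93.4% of a full TPM scale was held by the genes of the tables in RNA-seq, and between 23.1% and 61.1% in Ribo-seq. The secretory protein gene Scgb1a1 alone held 22.0% and 33.9% of the P42 lung RNA-seq total and 16.1% and 17.3% of the Ribo-seq total, which leaves less of the scale to all other genes there. Summed markers matched the tissue labels. The airway secretory list came to 228380 and 346085 TPM in P42 lung RNA-seq, against 54.7 and 60.8 TPM in P42 brain, and the neuron list to 61.0 and 61.7 TPM in P42 lung, against 3666 and 4078 TPM in P42 brain. Photoreceptor, kidney epithelium, cardiomyocyte and hepatocyte lists summed to at least 53784, 5387, 8842 and 137055 TPM in the P42 retina, kidney, heart and liver RNA-seq libraries. Some libraries stood apart. In P42 brain RNA-seq, the choroid plexus list summed to 4157 TPM in replicate 1 and 150 TPM in replicate 2. The cardiomyocyte list summed to 1298 and 460 TPM in the E15.5 lung RNA-seq libraries. E15.5 kidney RNA-seq replicate 2 held 48.9% of the TPM scale in the tables and replicate 1 held 81.7%. Footprints of P42 heart, and to a lesser level of P42 brain, kidney and replicate 1 of P42 lung, held genes of testis germ cells, as given with the footprint data. Differences below are of log2(TPM + 1), tested with limma across all genes with Benjamini-Hochberg adjustment over 24 libraries of an assay. Calls needed a difference of at least 1 in either direction together with an adjusted p under 0.05, and each difference is given with its standard error.

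The 38 genes together reached their highest mRNA level in P42 lung. Their summed level was 1061 ± 94.0 TPM in P42 lung, against 289 ± 33.6 TPM in E15.5 lung, and 191 ± 15.7 TPM in P42 brain, against 280 ± 3.37 TPM in E15.5 brain (SD, n = 2 each). By footprints the sum was 687 ± 70.4 TPM in P42 lung, against 128 ± 0.617 TPM in E15.5 lung, and 124 ± 16.8 TPM in P42 brain, against 111 ± 0.979 TPM in E15.5 brain. Outside lung and brain the mRNA sums were 246 TPM in P42 retina, against 378 TPM in E15.5 retina, 96.0 TPM in P42 kidney, against 101 TPM in E15.5 kidney, 21.5 TPM in P42 heart, against 65.6 TPM in E15.5 heart, and 12.6 TPM in P42 liver, against 90.8 TPM in E15.5 liver. A few genes carry much of these sums. Mean mRNA was 340 TPM for Dynlrb2 and 281 TPM for Tppp3 in P42 lung, 37.4 TPM for Zmynd10 in P42 kidney and 55.8 TPM for Mns1 in E15.5 liver. The median of the 38 genes was 7.40 and 5.77 TPM in P42 lung mRNA, against 2.94 and 3.86 TPM in E15.5 lung. In brain mRNA it was 2.30 and 1.77 TPM at P42, against 2.74 and 3.05 TPM at E15.5. By footprints in lung it was 8.03 and 8.94 TPM, against 1.44 and 1.39 TPM. In whole tissue, fewer cells of a type and less RNA per cell cannot be told apart. By group mean, 22 of the 38 genes were highest in P42 lung by RNA-seq and 25 by Ribo-seq, 16 of them by both. The other 16 peaks of mRNA were spread over E15.5 retina with 4, P42 retina with 4, E15.5 brain with 3, E15.5 lung with 3, P42 brain with Drc1 and P42 kidney with Zmynd10. Of the other 13 peaks of footprints, 6 were in P42 heart, whose libraries stand apart, 2 each in E15.5 lung and E15.5 brain, and 1 each in P42 brain, P42 kidney and E15.5 liver.

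**Figure D1:**
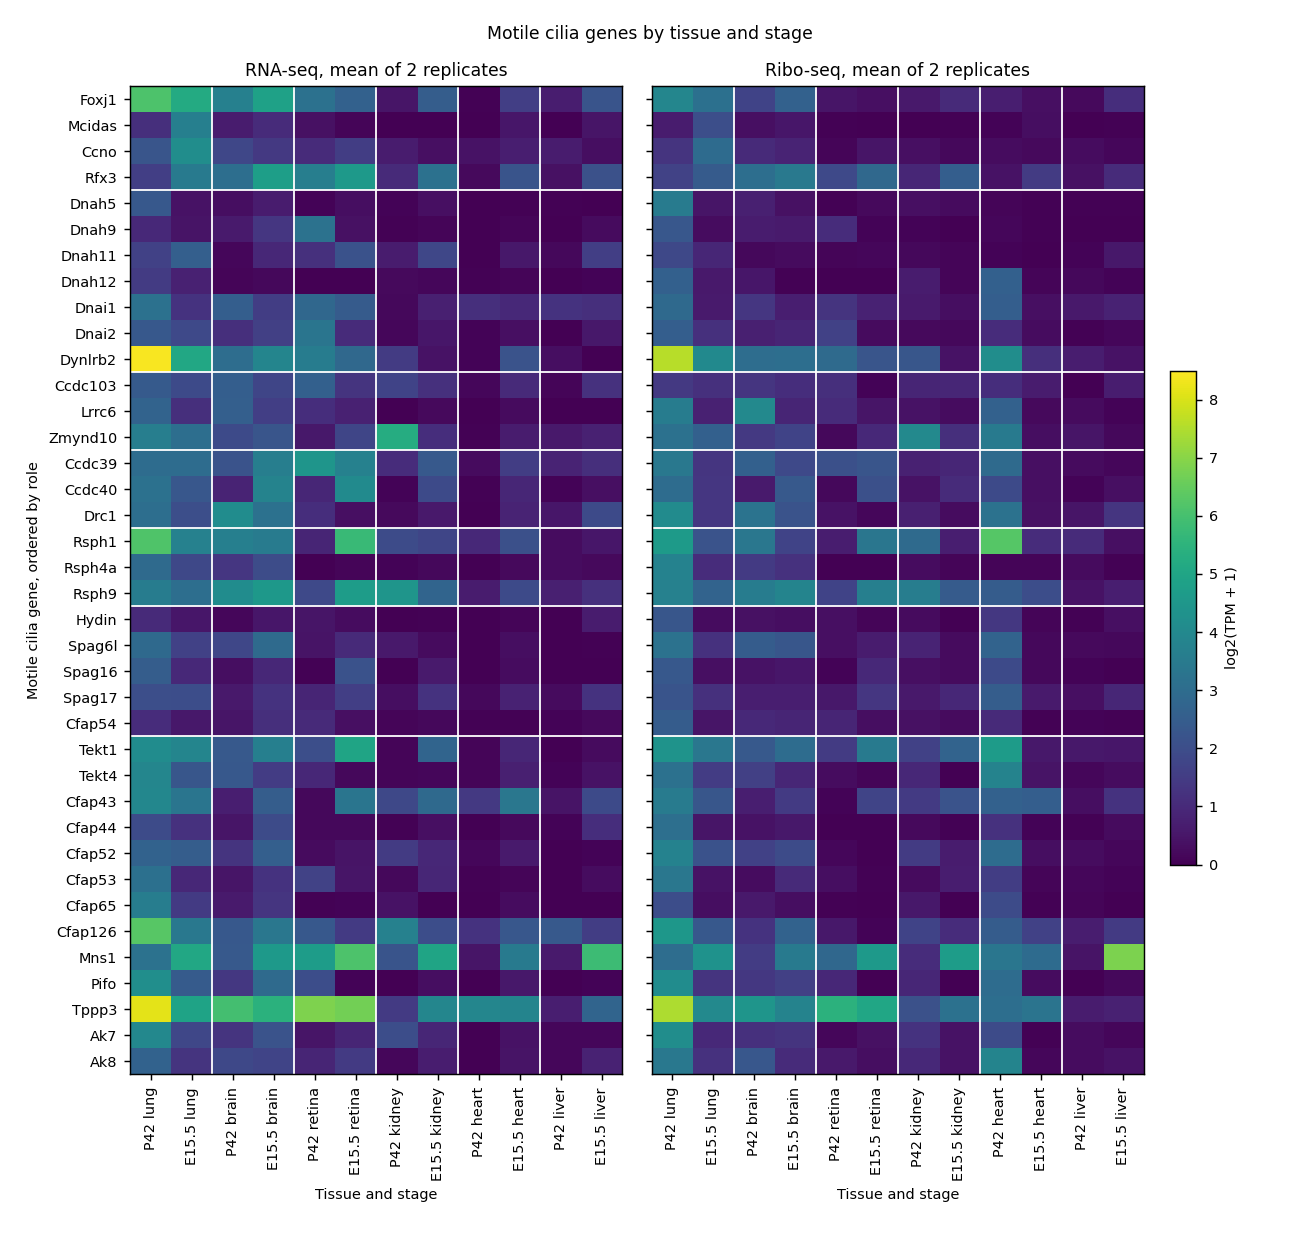
Mean log2(TPM + 1) of the 38 motile cilia genes (rows, ordered by role: regulators, dynein arms, arm assembly, ruler and nexin link, radial spokes, central pair, tektins and other axonemal proteins) in each tissue and stage (columns), for RNA-seq and Ribo-seq, n = 2 per cell. The P42 lung column is the brightest for 22 genes by RNA-seq and 25 by Ribo-seq, and the P42 heart column is dark by RNA-seq and not by Ribo-seq.

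Between the stages of lung, genes of the dynein arms, spokes, central pair and tektins were among those that rose, while Mcidas, Ccno, Rfx3 and the axonemal gene Mns1 fell by RNA-seq. By RNA-seq, 35 of the 38 genes passed the filter on low values, and 16 rose at P42 over E15.5, 4 fell and 15 were not called. Over all genes tested, 10.1% rose and 53.5% fell. The median difference was 0.91 for these genes and −1.11 for all genes tested. Without the filter, 32 of all 38 genes had a positive difference, against 22.0% of all genes. By Ribo-seq all 38 passed, and 29 rose, 3 fell and 6 were not called, with 18.6% of all genes tested rising and 22.8% falling. The medians were 1.99 and −0.21. Calls of both assays coincided in 16 genes that rose and in 3 that fell, which were Mcidas, Ccno and Mns1. The low median of all genes moves with the scaling: scaled by the median of gene ratios (median of all genes 0.11), 29 of these genes rose by RNA-seq and 1, Mcidas, fell. The 16 rises were called under each scaling tried. Markers of airway cells and cartilage differed between the same libraries. The 8 airway secretory genes summed to 228380 and 346085 TPM in P42 lung, against 476 and 552 TPM in E15.5 lung. Of these genes, Scgb1a1 alone held 22.0% and 33.9% of a full TPM scale in P42 lung, against 0.00018% and 0.00034% in E15.5 lung. Scgb1a1 thus makes up most of the P42 sums and little of the E15.5 sums. The 7 genes of airway basal cells and cartilage summed to 0.730 and 0.831 TPM in P42 lung, against 43.5 and 34.2 TPM in E15.5 lung. That sum does not separate basal cells from cartilage. Their part in the result was not tested.

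Mcidas and Ccno, which act in the first steps of multiciliated cell formation, were highest in E15.5 lung. Mcidas had 1.26 and 1.17 TPM in P42 lung, against 9.34 and 14.3 TPM in E15.5 lung. In brain it had 0.585 and 0.567 TPM at P42, against 1.12 and 1.00 TPM at E15.5. It fell in lung by 2.51 ± 0.14 (adjusted p 3.3e-13), and the 16 libraries of the other tissues reached at most 0.530 TPM. Ccno, a cyclin-like protein needed for centriole multiplication, had 4.36 and 3.11 TPM in P42 lung, against 15.9 and 18.3 TPM in E15.5 lung. In brain Ccno had 2.21 and 2.75 TPM at P42, against 1.47 and 1.90 TPM at E15.5. It fell in lung by 1.94 ± 0.16 (adjusted p 2.9e-10), or by 0.78 with median-of-ratios scaling, which is not called. At E15.5 both genes were higher in lung than in brain, Mcidas by 2.61 ± 0.14 and Ccno by 2.75 ± 0.16 (adjusted p 7.7e-14 and 4.7e-13), and both were called by footprints too. Footprints followed: Mcidas had 0.614 and 0.550 TPM in P42 lung, against 3.03 and 3.22 TPM in E15.5 lung, and Ccno had 1.49 and 1.39 TPM, against 6.9997 and 6.69 TPM.

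Foxj1, the regulator of the axonemal programme (chromosome 11, 116330704 to 116335399, GRCm38, minus strand), did the opposite. It had 77.4 and 60.2 TPM in P42 lung, against 33.5 and 38.4 TPM in E15.5 lung, and 11.5 and 12.5 TPM in P42 brain, against 28.2 and 27.8 TPM in E15.5 brain. The libraries of the stages did not overlap in either tissue. The difference in lung, 0.91 ± 0.19 (adjusted p 0.00013), missed the size needed for a call, and brain fell by 1.15 ± 0.19 (adjusted p 1e-05), or by 0.41 with median-of-ratios scaling, which is not called. The change in lung exceeded that in brain by 2.06 ± 0.27 (adjusted p 7.6e-07). Its footprints were 13.1 and 15.1 TPM in P42 lung, against 7.90 and 7.84 TPM in E15.5 lung, and 2.36 and 2.13 TPM in P42 brain, against 6.34 and 4.07 TPM in E15.5 brain. Outside lung and brain, Foxj1 mRNA ranged from 0.0121 to 8.32 TPM with a median of 2.68 TPM.

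Rfx3 was the regulator that stayed higher in brain. It had 2.45 and 1.499 TPM in P42 lung, against 9.60 and 10.9 TPM in E15.5 lung, and 8.72 and 5.95 TPM in P42 brain, against 26.1 and 26.8 TPM in E15.5 brain. Rfx3 fell with age in lung by 1.94 ± 0.24 and in brain by 1.74 ± 0.24, and was lower in lung than in brain by 1.48 ± 0.24 at P42 and by 1.29 ± 0.24 at E15.5 (adjusted p 1.4e-07, 9.7e-07, 6.3e-06 and 5.3e-05). The P42 difference between the tissues was also called by footprints (−1.37 ± 0.17). The Rfx3 fall in lung was 0.86 with median-of-ratios scaling, and its P42 difference between the tissues was −0.99 when centred on the median gene, neither called. The change with stage did not differ between the tissues beyond its error (−0.19 ± 0.34, adjusted p 0.63). E15.5 retina, with 19.7 and 25.9 TPM, was the highest other group.

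**Figure D2:**
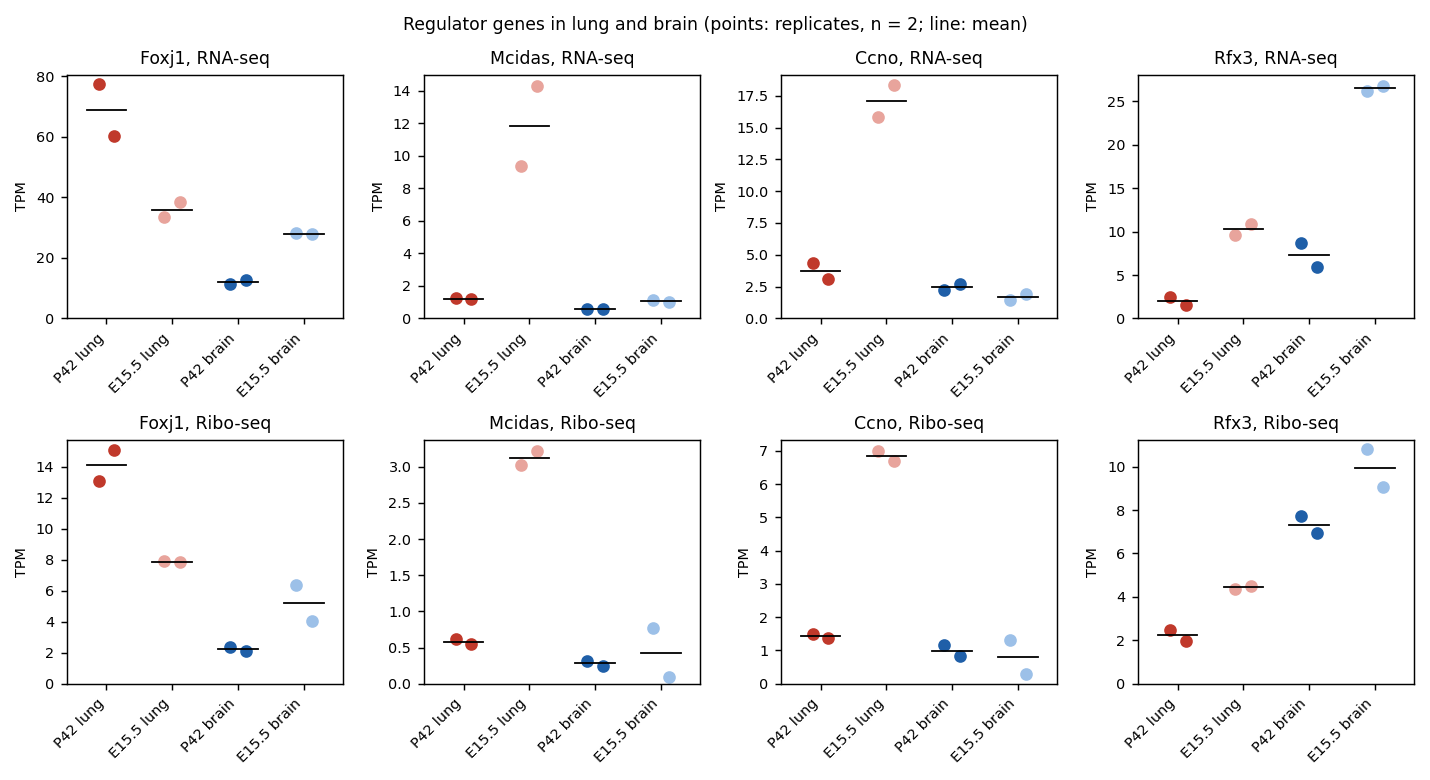
TPM of Foxj1, Mcidas, Ccno and Rfx3 (columns) by RNA-seq (top) and Ribo-seq (bottom) in lung and brain at P42 and E15.5. Points are the 2 replicates and lines their mean. Foxj1 is highest in P42 lung, Mcidas and Ccno in E15.5 lung and Rfx3 in E15.5 brain.

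The RFX family of factors binds a sequence called the X-box, whose half-site is written GTTNCC. Matches to the half-site are shown in the stretches of DNA upstream of 4 genes whose lung mRNA exceeded brain at P42. RefSeq promoter windows of GRCm38.p6, from 250 bases before to 50 after a transcript start, were found for 30 of the 38 genes and were searched on both strands. GTTNCC was found in 26 of the 30 (86.7%), against 48.8% of 27025 genes with a window. Its stricter form GTTGCC, which GTTNCC includes, was found in 16 (53.3%), against 14.1%. GTTNCC followed after 0 to 3 bases by its reverse GGNAAC was found in 1, Pifo (3.33%), against 0.936%. The forkhead word GTAAACA, of the kind that factors such as Foxj1 bind, was found in 2 (6.67%), against 4.05%. The bases just upstream of the start are printed for Dynlrb2 (chr8:116504815-116504973, plus strand), Dnai2 (chr11:114727219-114727407, plus strand), Spag16 (chr1:69826770-69826969, plus strand) and Pifo (chr3:106001498-106001697, minus strand), each cut where the gene's own annotated exons begin. Dynlrb2 is shown for its large difference between lung and brain, Dnai2 for a single site close to the start, Spag16 for 3 sites in a row and Pifo for its pair, upstream of the start of its shorter transcript, and capitals mark GTTNCC or its reverse GGNAAC.
Dynlrb2: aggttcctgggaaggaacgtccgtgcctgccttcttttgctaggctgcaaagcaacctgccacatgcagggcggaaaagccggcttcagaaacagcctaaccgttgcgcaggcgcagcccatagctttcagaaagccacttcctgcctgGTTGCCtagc
Dnai2: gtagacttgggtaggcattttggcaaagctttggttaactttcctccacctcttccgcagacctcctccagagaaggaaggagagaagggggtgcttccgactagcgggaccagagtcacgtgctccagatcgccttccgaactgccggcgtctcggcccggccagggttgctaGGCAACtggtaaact
Spag16: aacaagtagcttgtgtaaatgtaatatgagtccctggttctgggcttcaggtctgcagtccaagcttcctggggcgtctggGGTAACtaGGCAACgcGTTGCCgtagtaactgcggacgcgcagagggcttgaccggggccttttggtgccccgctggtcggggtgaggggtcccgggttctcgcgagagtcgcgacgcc
Pifo: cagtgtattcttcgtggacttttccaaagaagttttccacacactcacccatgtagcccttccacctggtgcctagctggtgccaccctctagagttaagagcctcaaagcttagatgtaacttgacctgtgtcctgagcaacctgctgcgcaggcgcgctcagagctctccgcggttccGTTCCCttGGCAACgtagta
Counted from the RefSeq transcript start, which lies beyond the end of the printed bases in Dynlrb2 and Dnai2, the sites begin 51 bases before the start in Dynlrb2, 26 before it in Dnai2, 119, 111 and 103 before it in Spag16, and 20 and 12 before it in Pifo. A match is a run of letters and was not tested for binding here.

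Dynein arm genes supplied the largest difference between the tissues. By RNA-seq, 3 of the 6 tested of 7 rose in lung between the stages and none was called lower, against 10.1% rising and 53.5% falling of all genes, and by Ribo-seq 6 of 7 rose, against 18.6%. Dynlrb2, a roadblock-type dynein light chain, had 338 and 341 TPM in P42 lung, against 29.5 and 36.5 TPM in E15.5 lung. In brain it had 8.82 and 5.58 TPM at P42, against 10.9 and 16.6 TPM at E15.5. It rose in lung by 3.33 ± 0.25 (adjusted p 5.1e-11) and exceeded brain by 5.41 ± 0.25 at P42 (adjusted p 3.2e-15) and by 1.22 ± 0.25 at E15.5 (adjusted p 0.00015). Outside lung and brain the highest library was a P42 retina with 12.7 TPM. Dynlrb2 footprints were 149 and 238 TPM in P42 lung, against 15.5 and 15.3 TPM in E15.5 lung, and 8.51 and 6.10 TPM in P42 brain.

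At the other end of the group stood Dnai1, an outer arm intermediate chain. It had 8.09 and 7.87 TPM in P42 lung, against 1.53 and 1.26 TPM in E15.5 lung, and 4.53 and 4.99 TPM in P42 brain, against 1.75 and 2.09 TPM in E15.5 brain. Dnai1 rose in lung by 1.91 ± 0.20 (adjusted p 1.6e-08), while the P42 difference between lung and brain, 0.64 ± 0.20 (adjusted p 0.0068), was not called. By footprints that difference was 1.56 ± 0.22 and was called. Its exons overlap those of Enho on the opposite strand, and no source used here says whether counting used the strand. The heavy chains, the motor subunits, were low by mRNA. Dnah5 had 4.65 and 3.52 TPM of mRNA in P42 lung, against 0.217 and 0.470 TPM in E15.5 lung, with footprints of 10.8 and 10.5 TPM, against 0.352 and 0.415 TPM. Dnah5 rose in lung by 1.92 ± 0.11 by RNA-seq and by 3.08 ± 0.10 by Ribo-seq (adjusted p 9.7e-13 and 5e-14). Dnah9, Dnah12 and Hydin, a central pair protein, failed the mRNA filter between the tissues at P42 and were called higher in lung than in brain by footprints, by 1.67 ± 0.13, 2.07 ± 0.19 and 1.89 ± 0.13.

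Dnah11, also an outer arm heavy chain, had a different course. It had 2.14 and 2.16 TPM in P42 lung, against 4.87 and 5.11 TPM in E15.5 lung, with a difference of −0.92 ± 0.16 that was not called. Its footprints were 3.05 and 2.10 TPM in P42 lung, against 0.860 and 0.915 TPM in E15.5 lung, a difference of 0.91 ± 0.11, also not called. As deposited, the mRNA and footprint libraries thus ordered the stages in opposite ways. The median of all genes in this comparison was −1.11 by RNA-seq, or 0.11 with median-of-ratios scaling, and −0.21 by Ribo-seq, or 0.14. Exons of Dnah11 overlap Cdca7l on the opposite strand.

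Among the 3 factors that assemble dynein arms in the cytoplasm, only Zmynd10 was called between lung and brain at P42. Zmynd10 had 14.4 and 8.67 TPM in P42 lung, against 5.64 and 9.27 TPM in E15.5 lung, and 3.00 and 2.53 TPM in P42 brain, against 3.32 and 4.16 TPM in E15.5 brain. It exceeded brain in P42 lung by 1.70 ± 0.21 (adjusted p 1.1e-07). Its level was higher still in P42 kidney, with 37.6 and 37.2 TPM, against 1.30 and 1.01 TPM in E15.5 kidney, a rise of 4.16 ± 0.21 (adjusted p 5.4e-14), and kidney footprints were 16.1 and 14.04 TPM at P42, against 0.959 and 1.49 TPM at E15.5. Kidney epithelium carries primary cilia, which do not beat. Ccdc103 had 4.08 and 4.64 TPM in P42 lung, against 4.46 and 5.07 TPM in P42 brain, libraries that overlap, and the difference was −0.10 ± 0.17 (adjusted p 0.57). Lrrc6 rose in both tissues. It had 6.28 and 4.65 TPM in P42 lung, against 0.930 and 1.46 TPM in E15.5 lung, and its footprints in brain were 17.05 and 12.9 TPM at P42, against 0.439 and 1.23 TPM at E15.5. The footprint rise was 2.78 ± 0.25 in lung and 3.15 ± 0.25 in brain (adjusted p 2.3e-08 and 4.5e-09), and it was the only gene of the 38 called higher at P42 in brain by both assays. The mRNA rise of Lrrc6 in brain, 1.00 ± 0.14, was 0.85 without E15.5 brain replicate 2 and 0.95 without P42 brain replicate 2, and then not called.

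The genes of the ruler and of the nexin link split between the tissues. Ccdc40, which with Ccdc39 forms the ruler along the doublets, had 8.95 and 7.11 TPM in P42 lung, against 3.62 and 4.21 TPM in E15.5 lung. In brain it had 0.895 and 0.704 TPM at P42, against 12.98 and 12.7 TPM at E15.5. Lung was therefore above brain at P42 by 2.32 ± 0.16 and below it at E15.5, where the difference was −1.50 ± 0.16 (adjusted p 4.4e-12 and 1.4e-08). Ccdc40 fell in brain by 2.94 ± 0.16 (adjusted p 2.3e-13). Drc1, a nexin link subunit, was the gene highest in P42 brain, with 16.1 and 16.97 TPM there, against 7.99 and 8.09 TPM in E15.5 brain. P42 lung had 8.83 and 5.79 TPM, against 2.71 and 3.51 TPM in E15.5 lung. Drc1 mRNA was lower in P42 lung than in P42 brain by 1.10 ± 0.16 (adjusted p 2.3e-06). Without P42 lung replicate 2 the difference was −0.84 and no longer called, and with median-of-ratios scaling it was −0.67. Footprints stood the other way round, at 14.1 and 18.4 TPM in P42 lung, against 8.89 and 8.06 TPM in P42 brain (0.85 ± 0.24, adjusted p 0.0038, not called).

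Of the radial spoke head genes, Rsph1 and Rsph4a were higher in P42 lung than in P42 brain by each assay, 2 of 3, against 19.5% of all genes by RNA-seq and 24.7% by Ribo-seq. Rsph1 had 75.4 and 66.0 TPM in P42 lung, against 9.99 and 14.9 TPM in E15.5 lung, and 13.98 and 9.73 TPM in P42 brain, against 10.7 and 10.4 TPM in E15.5 brain. It exceeded brain at P42 by 2.50 ± 0.21 (adjusted p 2.3e-10). By footprints the Rsph1 difference was 1.28 ± 0.37 (adjusted p 0.0045). It was 0.92 without P42 brain replicate 2 and 1.02 without P42 lung replicate 2 (adjusted p 0.075 and 0.053), and 0.76 with equal sums, none of them called. Rsph9 did not follow. It had 13.4 and 8.19 TPM in P42 lung, against 20.0 and 12.8 TPM in P42 brain, libraries that overlap, with a difference of −0.56 ± 0.25 (adjusted p 0.044) that was not called. Both genes were high in E15.5 retina, Rsph1 with 57.2 and 48.7 TPM and Rsph9 with 28.3 and 21.9 TPM. In P42 retina they had 0.911 and 0.750 TPM and 2.75 and 2.61 TPM, and fell by 4.88 ± 0.21 and 2.82 ± 0.25 (adjusted p 2.8e-15 and 1.1e-09).

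All 3 central pair genes tested of 5 were higher in P42 lung than in P42 brain by RNA-seq, against 19.5% of all genes. Spag16 had 4.98 and 4.42 TPM in P42 lung, against 0.960 and 0.968 TPM in E15.5 lung, and 0.254 and 0.239 TPM in P42 brain, against 0.784 and 1.11 TPM in E15.5 brain. The P42 difference between the tissues was 2.19 ± 0.12 (adjusted p 2e-13). Spag6l, a close relative of Spag6 with which reads may be shared, had 7.26 and 5.75 TPM in P42 lung, against 1.83 and 2.44 TPM in E15.5 lung, and 2.82 and 2.19 TPM in P42 brain, against 6.47 and 6.72 TPM in E15.5 brain. Its difference between lung and brain was 1.10 ± 0.13 at P42 and −1.28 ± 0.13 at E15.5 (adjusted p 8.6e-08 and 1e-08). The P42 value was 0.97 without P42 brain replicate 2 and 0.95 without P42 lung replicate 1, and then not called.

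Of the 13 tektins and other axonemal proteins, 11 by RNA-seq and 13 by Ribo-seq were higher in P42 lung than in P42 brain, against 19.5% and 24.7% of all genes. Cfap126, which docks basal bodies in airway cells, had 70.8 and 84.7 TPM in P42 lung, against 8.41 and 10.6 TPM in E15.5 lung, and 5.07 and 3.04 TPM in P42 brain, against 9.28 and 9.39 TPM in E15.5 brain. It exceeded brain at P42 by 3.99 ± 0.21 and rose in lung by 2.91 ± 0.21 (adjusted p 4e-14 and 2.8e-11). Tppp3, a microtubule-binding protein, had 320 and 242 TPM in P42 lung, against 30.2 and 28.8 TPM in E15.5 lung, and 59.0 and 64.7 TPM in P42 brain, against 47.1 and 36.4 TPM in E15.5 brain. Tppp3 rose in lung by 3.20 ± 0.41 (adjusted p 2.4e-07). It was also high in P42 retina, with 95.2 and 133 TPM. Mns1, a filament-like protein inside the doublets that is also made in meiotic cells, ran against the group. Mns1 had 8.27 and 8.09 TPM in P42 lung, against 32.4 and 34.6 TPM in E15.5 lung, and 4.27 and 4.10 TPM in P42 brain, against 23.0 and 23.2 TPM in E15.5 brain. It fell with age in each of the 6 tissues by RNA-seq, by 1.91 ± 0.18 in lung and most in liver, with 0.590 and 0.453 TPM at P42, against 62.0 and 49.5 TPM at E15.5 (−5.21 ± 0.18, adjusted p 3.4e-17). In lung the Mns1 fall was 0.67 with median-of-ratios scaling and not called. Exons of Mns1 overlap Tex9 on the opposite strand.

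Set side by side, lung and brain differed at P42 and much less at E15.5. By RNA-seq at P42, 33 of the 38 genes were tested, 23 were higher in lung, 2 lower (Rfx3 and Drc1) and 8 not called, against 19.5% higher and 36.8% lower over all genes tested. Medians were 1.57 for these genes and −0.50 for all genes. Without P42 brain replicate 1, the library high in choroid plexus genes, the counts were 24 and 2, and without P42 lung replicate 2 only Rfx3 was lower. By Ribo-seq at P42, 29 of 37 were higher and 1, Rfx3, lower, against 24.7% and 26.7%, with medians of 1.78 and −0.14. By both assays, 22 genes were higher. At E15.5, RNA-seq called 4 of 32 higher in lung (Mcidas, Ccno, Dnah11 and Dynlrb2) and 5 lower (Rfx3, Ccdc40, Drc1, Rsph9 and Spag6l), against 20.4% and 20.8%, with medians of −0.04 and 0.00. Ribo-seq called 2 of 25 higher and 4 lower at E15.5, against 20.1% and 16.8%. Those counts were 4 and 2 without E15.5 brain replicate 1, and 1 was higher without either E15.5 lung replicate. Without regard to the filter, both lung RNA-seq libraries stood above both brain ones in 33 of 38 genes at P42 and in 13 at E15.5, against 27.8% and 36.6% of all genes. They stood below in 2 genes at P42 and in 17 at E15.5, against 45.4% and 36.7% of all genes. By Ribo-seq lung stood above in 35 and 15 genes, against 29.9% and 33.4%, and below in 2 and 13, against 35.9% and 27.1%.

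Between the stages of brain, 1 of 28 genes tested by RNA-seq rose, the assembly factor Lrrc6, and 12 fell, against 11.7% rising and 36% falling of all genes, and the medians were −0.80 and −0.60. With median-of-ratios scaling 6 rose and 4 fell, and without P42 brain replicate 1 the counts were 2 and 14. Choroid plexus markers differed between the same libraries: 1 of 9 tested rose and 6 fell, with a median of −1.61, and the 10 listed summed to 4157 and 150 TPM at P42, against 2438 and 2579 TPM at E15.5. By Ribo-seq 1 of 9 rose and 5 fell. Their part in the result was not tested. Rfx3, Ccdc40, Cfap43 and Mns1 fell under each scaling. Footprints in brain gave 4 rises and 3 falls among 24 tested, against 20.2% and 17.7%, and rescaled to an equal sum of listed genes 3 and 4.

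The difference between the stage changes of lung and brain was tested directly, with a model term for it. By RNA-seq, the change in lung exceeded that in brain in 20 of 34 genes and fell short of it in 2, Mcidas and Ccno, against 13.4% and 32% of all genes. The medians were 1.54 and −0.47. By Ribo-seq the counts were 27 and 2 of 37, against 15.6% and 22%, and 18 genes exceeded by both assays. The lower Ribo-seq count was 1 without E15.5 brain replicate 2 or without either E15.5 lung replicate. Without P42 lung replicate 1 the higher Ribo-seq count was smaller. The filter was then applied to the libraries left, and among called genes still tested only Spag17 lost its call (0.95). The other losses were genes no longer tested. A gene can pass this filter through its level in P42 lung alone. Without the filter the counts from all libraries were 22 and 2 of 38 by RNA-seq, against 10.1% and 22.5% of all genes. By Ribo-seq the unfiltered counts were 27 and 2, against 10.9% and 14.4%. P42 lung Ribo-seq replicate 1 held 52.4 TPM of testis germ cell genes, against 4.91 TPM in replicate 2. The part of testis genes in these counts was not tested. The largest RNA-seq values were 4.18 ± 0.35 for Dynlrb2, 3.97 ± 0.29 for Cfap126 and 3.82 ± 0.22 for Ccdc40, and for Ccdc40 the change was 0.87 ± 0.16 in lung and −2.94 ± 0.16 in brain. This test and the tests within lung and between the P42 tissues share the P42 lung libraries.

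**Figure D3:**
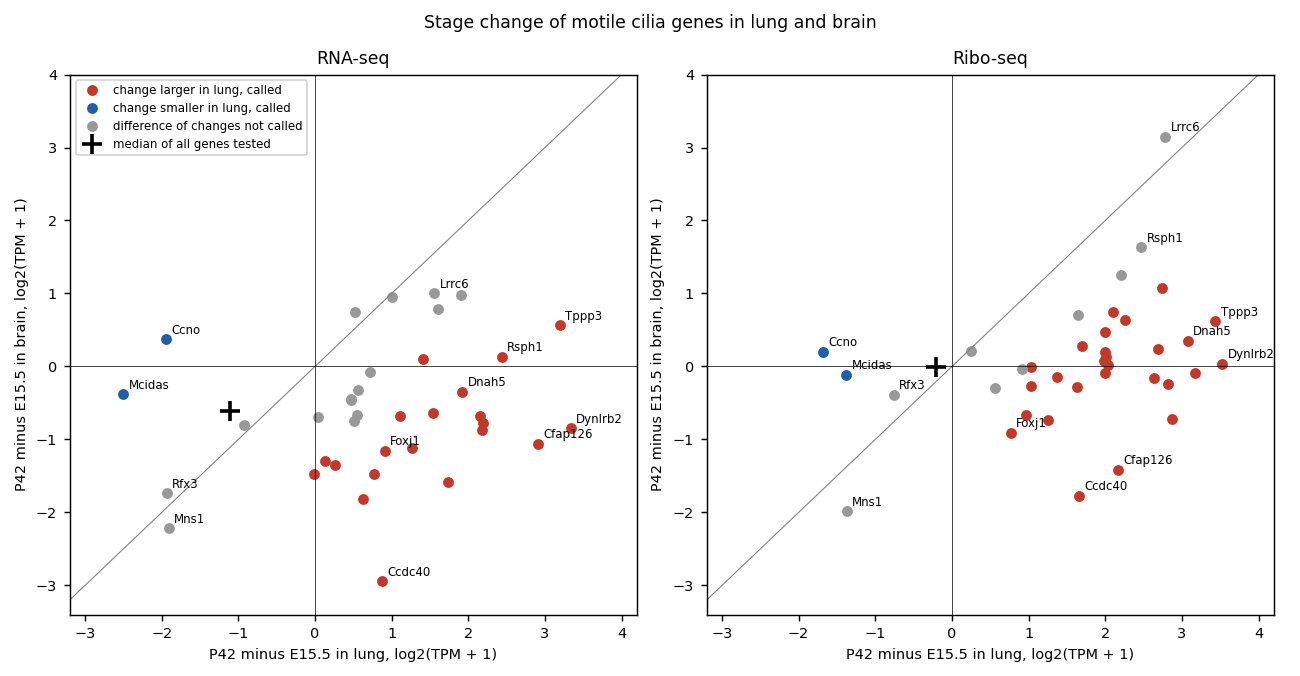
P42 minus E15.5 difference of log2(TPM + 1) in lung (horizontal) and brain (vertical), a point per motile cilia gene, for RNA-seq and Ribo-seq. Red points are genes whose change in lung exceeded that in brain, blue points Mcidas and Ccno, whose change fell short, grey points were not called, and the cross is the median of all genes tested. Most points lie right of the diagonal line of equal change.

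Against the mean of P42 retina, kidney, heart and liver, lung and brain both carried more of these messages. Here the filter took the mean over all P42 RNA-seq libraries, so a gene can pass through its level in lung alone. Without the filter, 34 of 38 genes were higher and 0 lower in lung, against 15.9% and 10.8% of all genes. In brain the unfiltered counts were 16 and 0, against 24.5% and 7.61%. In lung 27 of 29 tested genes were higher and 0 lower by limma, against 21.2% and 15.8% of all genes, with a median of 2.63, against 0.07. At an unadjusted p below 0.05 also 0 were lower, and the 2 genes not called were Rfx3 and Dnah9, with differences of 0.25 ± 0.19 and 0.16 ± 0.09. Dynlrb2 led in lung with 7.06 ± 0.20, then Rsph1 with 5.14 ± 0.17 and Foxj1 with 5.02 ± 0.15. In brain 16 of 29 were higher and 0 lower, against 34.3% and 11.1%, with a median of 1.19, against 0.52, and at an unadjusted p below 0.05 1 gene, Dnah9, was lower (−0.22 ± 0.09). Drc1 led in brain with 3.66 ± 0.13, then Tppp3 with 2.76 ± 0.32 and Rsph1 with 2.64 ± 0.17.

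The other tissues changed gene by gene. In retina, whose photoreceptors carry an immotile sensory cilium, 5 of 24 tested genes rose and 8 fell, against 18.6% and 24.7% of all genes. The rises included Dnah9, with 8.57 and 8.05 TPM at P42, against 0.281 and 0.296 TPM at E15.5 (2.85 ± 0.11), and Dnai2, with 8.45 and 9.13 TPM, against 0.931 and 1.16 TPM (2.26 ± 0.13). P42 retina was the highest group for both by mRNA, while their footprints there were 0.831 and 1.38 TPM and 1.87 and 2.31 TPM, below P42 lung. The falls included Ccdc40, with 0.713 and 1.03 TPM at P42, against 15.7 and 15.9 TPM at E15.5. In kidney 5 of 17 rose and 9 fell, against 13.1% and 43.9%, or 7 and 5 with median-of-ratios scaling. Without P42 kidney replicate 2, 3 rose. Of E15.5 kidney, replicate 2 stands apart from replicate 1, with 77.5 against 124.9 TPM for the 38 genes, and without it 4 rose and 9 fell. Without E15.5 kidney replicate 1, 4 rose and 6 fell. Of the gonad and adrenal markers, 1 of 4 tested rose and 3 fell in the same libraries, with a median of −5.52, and their 7 genes summed to 178.0 and 140.8 TPM in P42 kidney, against 527 and 302 TPM in E15.5 kidney. Their part was not tested. In heart 0 of 11 rose and 9 fell by limma, against 2.73% and 74.6%, or 2 and 3 with median-of-ratios scaling. In liver 0 of 10 rose and 7 fell by limma, against 13.4% and 47%, or 1 and 5 with median-of-ratios scaling. At an unadjusted p below 0.05, 0 genes were higher at P42 in heart and 1 in liver. In heart and liver, Mns1 was the fall called under each scaling.

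Translational efficiency, the footprint level relative to mRNA, was compared between lung and brain at P42 for the 6 genes with at least 5 TPM of mRNA in both. Drc1 was higher in lung by 1.96 ± 0.29 (adjusted p 1.9e-05), with 14.1 and 18.4 TPM of footprints on 8.83 and 5.79 TPM of mRNA in lung, against 8.89 and 8.06 TPM on 16.1 and 16.97 TPM in brain. Rsph1 was lower in lung by 1.21 ± 0.43 (adjusted p 0.043), a call that was lost when replicate 1 or 2 of P42 lung RNA-seq, replicate 2 of P42 brain RNA-seq, or replicate 1 of P42 lung or P42 brain Ribo-seq was left out (−0.85 to −1.31). The brain footprint libraries in this value held 123 and 81.4 TPM of testis germ cell genes, and Rsph1 footprints were 43.9 and 107 TPM in P42 heart, where its mRNA was 1.03 and 0.910 TPM. The part of testis transcripts in the Rsph1 value was not tested. Over all genes tested, 13.8% were higher and 1.14% lower. Foxj1, Dynlrb2, Rsph9 and Tppp3 were not called, with differences of −0.19 ± 0.32, −0.88 ± 0.58, 0.72 ± 0.37 and 0.86 ± 0.53.

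P42 heart footprints went against the heart's mRNA. The 38 genes summed to 159 and 358 TPM in the 2 Ribo-seq libraries, against 23.4 and 19.7 TPM in the RNA-seq libraries. Of the 38, 30 had a mean of at least 1 TPM by footprints and 4 by mRNA, and 36 had more footprints than mRNA, against 2 in E15.5 heart. Of all 22055 genes, 11172 and 11792 reached 1 TPM in the footprint libraries and 10782 and 10525 in the mRNA libraries. The share of all genes with more footprints than mRNA was not counted. Genes of the tables held 27.1% and 27.4% of the footprint scale there, against 87.7% and 85.8% of the mRNA scale. Rsph1 had 43.9 and 107 TPM of footprints in P42 heart, against 1.03 and 0.910 TPM of mRNA. Tekt1 had 15.8 and 33.2 TPM, against 0.0975 and 0.0653 TPM. Foxj1, Dnah5, Dnah9 and Rsph4a stayed low, with 0.184 and 1.07, 0.0731 and 0.0918, 0.0340 and 0.180, and 0.0824 and 0.0983 TPM of footprints.

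Genes of testis germ cells, a list of 13 such as the protamines, chosen after these values were seen, moved with them. They summed to 831 and 1975 TPM in P42 heart footprints, against 0.832 and 0.969 TPM in heart mRNA. The sums were 131 and 88.8 TPM in P42 kidney footprints, 123 and 81.4 TPM in P42 brain footprints, and 52.4 and 4.91 TPM in P42 lung footprints, against 10.2 and 7.43, 14.1 and 16.8, and 1.95 and 1.79 TPM in the mRNA of those tissues. Rsph1 footprints were 5.28% and 5.42% of the testis sum in heart, 5.45% and 6.88% in kidney and 9.63% and 8.33% in brain, while Lrrc6 footprints were 0.379% and 0.364% in heart and 13.9% and 15.9% in brain. The part of testis transcripts in the brain and lung footprint values was not tested. The testis sums of P42 lung footprints stood beside 687 ± 70.4 TPM for the 38 genes there. Scgb1a1 was also seen in P42 brain footprints, at 74.0 and 57.2 TPM, against 3.95 and 0.142 TPM in P42 brain mRNA.

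**Figure D4:**
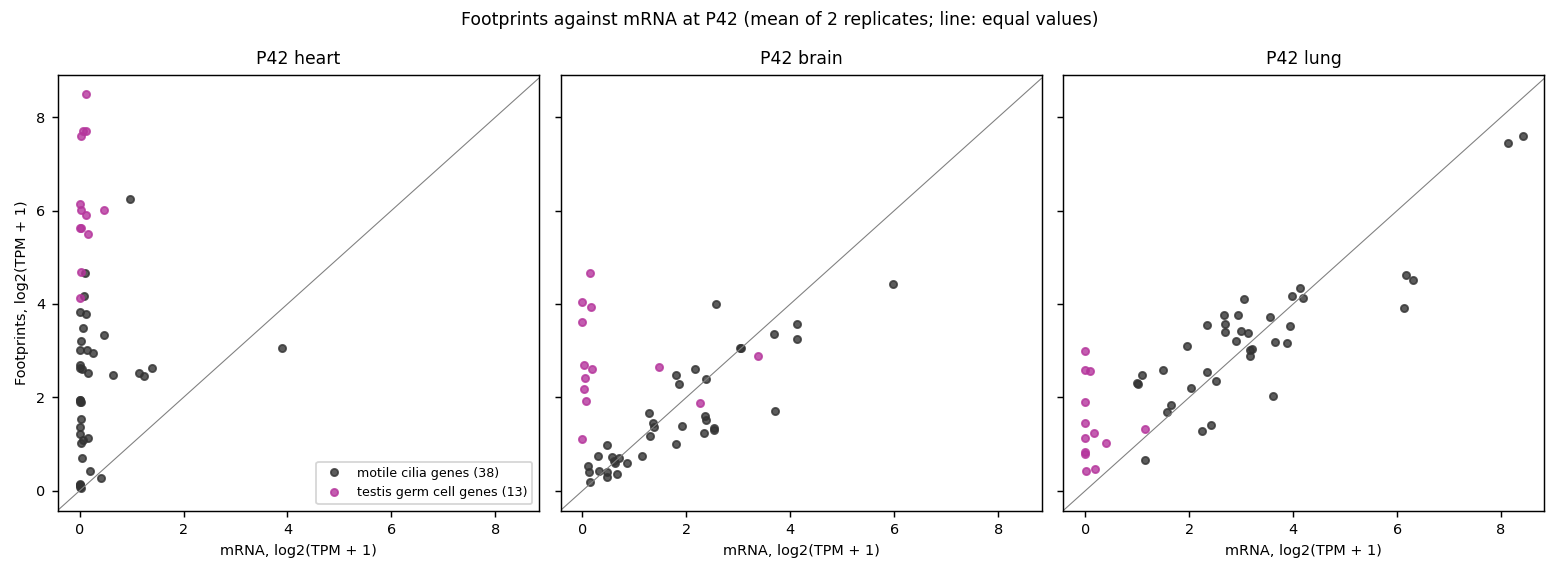
Mean footprint level against mean mRNA level, both as log2(TPM + 1), in P42 heart, brain and lung for the 38 motile cilia genes (dark) and 13 testis germ cell genes (magenta), n = 2, with the line of equal values. In heart 36 of the 38 genes lie above the line with mRNA near 0, as the testis genes do, while in brain and lung the motile cilia genes spread along the line. The share of all genes above the line was not counted.

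Other genes of the motile cilium, a list of 80, were described the same way. Of 70 tested by RNA-seq, 44 were higher in P42 lung than in P42 brain and 6 lower, with a median of 1.28, against 19.5% and 36.8% of all genes. At E15.5 the counts were 4 and 7 of 61, against 20.4% and 20.8%. In lung, 30 of 73 rose between the stages and 5 fell, against 10.1% and 53.5%. The 4 with the largest P42 difference were Sntn, 4.27 ± 0.10, Lrrc23, 4.03 ± 0.21, Ccdc153, 3.98 ± 0.15, and Nme9, 3.34 ± 0.14. Genes of intraflagellar transport and of the Bardet-Biedl complex, which build immotile and motile cilia alike, stood nearer to all genes in their medians. Of 33 tested, 1 was higher and 11 lower in P42 lung than in P42 brain, with a median of −0.60, against 19.5%, 36.8% and −0.50 for all genes, and 0 rose and 22 fell in lung between the stages by RNA-seq with limma, with a median of −1.31, against 10.1%, 53.5% and −1.11 for all genes. By footprints 0 rose and 1 fell in lung by limma, against 18.6% and 22.8% of all genes. At an unadjusted p below 0.05, 0 of the 33 were higher at P42 in lung by RNA-seq and 3 by Ribo-seq. Over the 24 RNA-seq libraries, the genes outside the list whose profile was most like the mean profile of the 38 were Cfap299 (Pearson r 0.956) and Cfap77 (0.947), as a description of libraries that share tissues and scale. Of the 37 listed genes that passed the filter, all but Hydin, Foxj1 had the highest correlation with the mean profile (0.957) and Dnah9 the lowest (0.422). Each of the 37 is itself part of that mean, which raises its correlation.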

How the data were processed

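RNA-seq and Ribo-seq of frozen tissue lysed with cycloheximide were analysed, per the labels' protocols, with a poly(A) kit for RNA-seq and an ARTseq kit with Ribo-Zero for footprints. Per the submitters' processing notes the tools were CASAVA 1.8.2, cutadapt 1.8.1, TopHat2 2.0.14 and Subread featureCounts 1.6.2 with GRCm38.p6. No source used here states the annotation release or the strand setting of counting. The authors deposited TPM values, a table per stage and assay, of 22055 genes, and 0 value columns were left unused. TPM keeps no depth, so no interval from read counts is given. Identifiers were named from GENCODE M21 without their version (21952 matched).

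Values were fitted as log2(TPM + 1) with limma 3.58.1 in R 4.3.3 (trended variance, Benjamini-Hochberg), 24 libraries per assay and 12 residual degrees of freedom, or 24 with both assays for translational efficiency. A gene was tested with at least 1 TPM in 2 libraries and a mean of at least 1 TPM over the libraries compared. For the comparisons with 4 other tissues that mean was over all P42 RNA-seq libraries. For translational efficiency a gene needed at least 5 TPM of mRNA in both tissues. Medians of all genes tested moved with scaling: the lung stage median was −1.11 as deposited and 0.11 with median-of-ratios scaling, and the brain one −0.60 and 0.11. Alternatives were pseudocounts, filters, scalings, the compared tissues alone, a replicate block and each library left out. Named in full were the 4 regulators and, per role, the genes with the largest and smallest P42 difference between lung and brain, with ranges outside those tissues. Other genes were named after their values were seen. The members and lists were chosen with earlier results of these data known, and the testis list and the fit without Scgb1a1 after seeing the data. Calculations were tested on simulated data. Reads shared with overlapping genes make 12 members uncertain. Replicates are biological per the design text, and p-values measure the spread between 2 libraries per group.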

Additional observations from a re-analysis of the deposited data

Results flagged for a closer look

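The stage change (P42 minus E15.5) differed between lung and brain in a model term for that difference, given here as lung minus brain on the log2 scale with limma. By RNA-seq the largest excesses in lung were 4.18 for Dynlrb2, 3.97 for Cfap126, 3.82 for Ccdc40, 3.32 for Pifo and 3.05 for Ak7. Values between 2 and 3 were 2.97 for Cfap53, 2.83 for Cfap65, 2.63 for Tppp3, 2.45 for Cfap43, 2.38 for Spag6l, 2.30 for Rsph1, 2.26 for Dnah5, 2.23 for Cfap44, 2.17 for Spag16 and 2.06 for Foxj1. Smaller ones were 1.79 for Rsph4a, 1.61 for Tekt1, 1.47 for Ccdc39, 1.43 for Cfap52 and 1.31 for Ak8. The early regulators differed the other way, with −2.32 for Ccno and −2.12 for Mcidas.

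By Ribo-seq the same term was 3.59 for Cfap53, 3.58 for Cfap126, 3.49 for Dynlrb2, 3.43 for Ccdc40, 3.26 for Ak7 and 3.05 for Pifo. It was 2.82 for Tppp3, 2.79 for Cfap44, 2.73 for Dnah5, 2.45 for Rsph4a, 2.09 for Spag16 and 2.02 for Dnah9. It was 1.98 for Cfap43, 1.92 for Cfap52, 1.90 for Hydin, 1.89 for Cfap54, 1.79 for Spag6l, 1.68 for Foxj1, 1.67 for Drc1, 1.63 for Tekt1, 1.62 for Dnai1, 1.53 for Dnah12 and 1.51 for Dnai2. The lowest were 1.42 for Cfap65, 1.35 for Ccdc39, 1.30 for Rsph9 and 1.04 for Spag17. Ccno had −1.89 and Mcidas −1.27.

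P42 heart Ribo-seq, which is in no tested contrast but is among the 24 Ribo-seq libraries that set the residual variance, held motile cilia footprints that summed to 159 and 358 TPM, against 23.4 and 19.7 TPM of mRNA in the same tissue, beside testis germ cell genes at 831 and 1975 TPM of footprints. With the libraries of the compared tissues alone, Ribo-seq counts were 29 higher and 3 lower in lung between the stages and 29 and 1 for lung minus brain at P42, the counts reported from all libraries.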

How the results depend on the processing

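Over the alternatives, 501 of 594 counts of called genes stayed within 1.5 times the reported one, and of 4749 values of single called genes 4508 kept the call, 234 lost it and 7 changed sign. The sign changes were in heart: with median-of-ratios scaling Rsph1 0.22 and Cfap126 0.37, and centred on the median gene Rsph9 0.32, Rsph1 0.51, Cfap126 0.52, Ccdc39 0.33 and Foxj1 0.062. Counts are written here as higher and lower. A pseudocount of 4 gave 10 higher in lung between stages by RNA-seq, 18 and 1 by Ribo-seq, 0 and 4 in brain by RNA-seq, and 2 and 1 by Ribo-seq. For lung minus brain it gave 15 and 0 at P42 by RNA-seq, 17 and 0 by Ribo-seq, 3 lower at E15.5 by RNA-seq, and 1 and 0 by Ribo-seq. For the difference of stage changes it gave 16 and 1 by Ribo-seq, for brain against 4 tissues 6 higher, and between stages 2 higher in retina, 2 lower in heart, 3 and 4 in kidney and 1 lower in liver. A pseudocount of 0.25 gave 3 higher in brain by RNA-seq, 4 higher at E15.5 by Ribo-seq, 1 higher in liver and 0 lower in translational efficiency.

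Median-of-ratios scaling gave 29 and 1 in lung, 6 and 4 in brain, 2 and 3 in heart, 5 lower in kidney and 1 higher in liver by RNA-seq, 1 lower for lung minus brain at P42 by RNA-seq, and 1 lower for the difference of stage changes by Ribo-seq. Centring on the median gene gave 30 and 1 in lung, 6 and 4 in brain, 2 and 1 in heart, 1 and 1 in liver, and 0 lower for lung minus brain at P42. Equal sums gave 0 higher in brain and 3 higher in kidney. Without mitochondrial genes 3 were higher in brain and 1 in heart. Without Scgb1a1, an alternative chosen after seeing the data, 1 was lower for lung minus brain at P42, and the higher counts were 28 there and 23 in lung between stages. A filter of 5 TPM, which tests fewer genes, gave 8 higher in lung by RNA-seq, 15 and 1 by Ribo-seq, 0 and 7 in brain, and 1 lower by Ribo-seq. For lung minus brain it gave 12 and 1 at P42 by RNA-seq, 13 and 0 by Ribo-seq, and 0 and 2 at E15.5 by Ribo-seq. It gave 11 and 1 for the difference of stage changes by RNA-seq, 10 and 0 by Ribo-seq, 9 higher for lung and 5 for brain against 4 tissues, 0 and 5 in retina, 2 lower in heart, 3 and 2 in kidney and 1 lower in liver. Translational efficiency had 4 higher with no filter, 0 lower with the compared tissues alone, and 0 and 0 with a floor of 20 TPM. Except for the filter and the left-out genes, the cause was not tested.

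Leaving out each library in turn gave 1 to 2 higher in brain between stages by RNA-seq (2 without P42 brain replicate 1), 1 to 2 lower for lung minus brain at P42 by RNA-seq, 1 to 4 higher and 2 to 3 lower at E15.5 by Ribo-seq, 1 to 2 lower for the difference of stage changes by Ribo-seq, 3 to 4 higher in kidney and 0 to 1 lower in translational efficiency. Replicate numbers did not pair the libraries: same-numbered deviations had a median correlation of −0.003 by RNA-seq (−0.415 to 0.306, 66 pairs of groups) and −0.024 by Ribo-seq (−0.518 to 0.556). A fit with a replicate block moved no count of called genes, for example 16 and 4 in lung and 23 and 2 for lung minus brain at P42 by RNA-seq. Depth cannot be read from TPM, so the limit of detection of low genes such as Hydin is unknown, and stage coincides with the deposited table.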
